A study of Mus musculus with 48 samples.

Results

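Amino acid breakdown in mouse liver was followed over a day through 9 enzymes, picked by name and matched by Ensembl ID in all 48 tables: Sds, Hal, Tdo2, Hpd, Hgd, Fah, Gpt, Got1 and Oat. They are 9 of 11306 genes listed in either assay, and all 9 passed the filter on low values. Ribosome footprints, the mRNA fragments that ribosomes shield from nuclease, and total RNA were sequenced from the same 24 liver lysates. The animals were C57BL/6JRj males of 11 to 12 weeks, and the labels name no mutation and no drug. They had 2 weeks of 12 h light and 12 h dark, and were killed every 2 h, at 12 zeitgeber times (ZT, hours since lights on; ZT12 is lights off). A time point had 2 replicates, and each was a lysate mixed from 2 livers, so that 1 value averages 2 mice. Values given as pairs are those of replicate 1 and replicate 2. The sources used here do not give feeding times.

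RPKM, the deposited unit, divides the reads of a gene by its length and by the library's depth. Approximate depth, from the size of 1 read in low values, was 13.0 to 44.7 M reads in footprints (median 18.2 M) and 3.67 to 26.0 M reads in total RNA (median 12.2 M). The fewest approximate reads behind a member's value were 331.4 (Sds in total RNA of ZT18 replicate 2). Hepatocyte markers (5 of 5 found: Alb, Ttr, Apoa1, Fgb and Tf) summed to 85840 to 148600 RPKM in footprints and 59640 to 100300 RPKM in total RNA. Kupffer cell markers (5 of 5) summed to 176.9 to 311 RPKM in footprints and 195.6 to 349 RPKM in total RNA. Pancreatic acinar markers (8 of 10 found) summed to 185.8 to 996 RPKM in footprints and 138.8 to 679 RPKM in total RNA in 6 pools, both of ZT2, replicate 1 of ZT4 and ZT6, and replicate 2 of ZT8 and ZT16. In the other 18 pools they summed to 0.714 to 21.2 RPKM in footprints and 0.215 to 11.0 RPKM in total RNA. In such bulk lysates, fewer cells of a type and less RNA per cell cannot be told apart.

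Amino acids that are not needed for protein lose their nitrogen by transamination or deamination, and their carbon skeletons are turned into glucose, ketone bodies or fuel. The liver does most of this work and makes urea from the nitrogen. Many of the enzymes are known to be induced in rodent liver by fasting hormones, glucocorticoids or protein-rich food. Hal (histidine ammonia-lyase) starts histidine breakdown and Tdo2 (tryptophan dioxygenase) starts that of tryptophan. Hpd, Hgd and Fah act in that order in tyrosine breakdown, with the isomerase Gstz1 between Hgd and Fah, and loss of FAH causes hereditary tyrosinemia in humans. Sds (serine dehydratase) makes pyruvate from serine. Gpt and Got1 are the cytosolic aminotransferases of alanine and aspartate, well known as blood markers of liver damage. Oat, a mitochondrial enzyme, moves the amino group of ornithine onto 2-oxoglutarate.

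Promoter sequences are shown for the 3 members whose 24 h rhythm had an adjusted p under 0.05 in both assays, as context for rhythms described further on. They are the 250 bases before the RefSeq start site (GRCm38.p6), 5′ to 3′ on the gene's strand, for Hal (chr10:93488518-93488767, plus strand), Tdo2 (chr3:81975729-81975978, minus strand) and Oat (chr7:132576399-132576648, minus strand). Capitals mark letters of the searched motifs, on either strand.
Hal: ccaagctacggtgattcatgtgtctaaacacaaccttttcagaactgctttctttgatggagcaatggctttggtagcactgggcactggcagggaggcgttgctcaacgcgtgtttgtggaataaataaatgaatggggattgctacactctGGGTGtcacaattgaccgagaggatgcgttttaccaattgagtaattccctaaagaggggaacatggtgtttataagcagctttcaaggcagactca
Tdo2: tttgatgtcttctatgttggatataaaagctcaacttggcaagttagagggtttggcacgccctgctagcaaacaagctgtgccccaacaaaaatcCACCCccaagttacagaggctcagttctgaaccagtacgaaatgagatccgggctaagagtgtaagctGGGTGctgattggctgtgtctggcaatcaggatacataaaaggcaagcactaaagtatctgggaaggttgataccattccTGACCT
Oat: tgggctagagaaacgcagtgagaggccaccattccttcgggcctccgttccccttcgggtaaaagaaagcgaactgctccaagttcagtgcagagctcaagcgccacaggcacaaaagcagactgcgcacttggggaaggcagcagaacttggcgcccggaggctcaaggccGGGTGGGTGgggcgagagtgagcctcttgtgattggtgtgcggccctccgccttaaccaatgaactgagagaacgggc
The search covered these bases and the next 50. RefSeq promoters of this kind were found for 7 of 9 members, without Sds and Gpt. For Tdo2 and Fah the window lies inside the gene span of GENCODE M21, so where their promoter falls depends on the annotation. The E-box CACGTG, the site of the clock's activators, was in 0 of 7, against 7.15% of 32851 promoters of this length. The glucocorticoid receptor core motif TGTTCT was also in 0 of 7 (19.0% of all promoters). The nuclear receptor core motif AGGTCA was in 3 of 7 (Got1, Hgd and Tdo2; 16.3% of all). In Tdo2 it lies on the opposite strand, where its letters end at the base before the RefSeq start site. The cAMP response core motif TGACG was in 1 of 7, in Oat, 34 bases into the transcribed part (20.8% of all), and the Kruppel-like CACCC was in 5 of 7 (57.5% of all). In Oat 2 copies of CACCC overlap on the opposite strand. Letters in a window say nothing about whether a factor binds.

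Levels per gene length spanned about an order of magnitude. In footprints Hpd had the highest mean, 1715 ± 189.9 RPKM (SD over 24 pools), and Tdo2 followed with 1502 ± 198.6. Their ranges overlapped, and Hpd was above Tdo2 in 17 of 24 pools. Fah (591 ± 43.4), Hgd (546 ± 55.5) and Oat (524.5 ± 98.9) formed a middle tier. There Fah was above Hgd in 20 of 24 pools, and Hgd above Oat in 15. Sds (219 ± 84.2), Hal (197 ± 61.0), Got1 (176 ± 69.8) and Gpt (163 ± 19.8) came last, each above the next in 11, 14 and 13 of 24 pools, so that their order was not resolved. In total RNA the order differed within each tier. Tdo2 led with 1486 ± 201 RPKM and was above Hpd (1219 ± 145) in 22 of 24 pools. Oat (477.5 ± 82.7), Hgd (359.5 ± 37.8) and Fah (341 ± 33.8) followed, then Hal (209 ± 74.8), Gpt (191 ± 25.8), Sds (165 ± 64.1) and Got1 (128 ± 48.5). Oat was above Hgd in 23 of 24 pools, and Hgd above Fah in 19. Hal was above Gpt in 13 of 24 pools, so that their order was not resolved, Gpt above Sds in 17 and Sds above Got1 in 21.

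**Figure D1:**
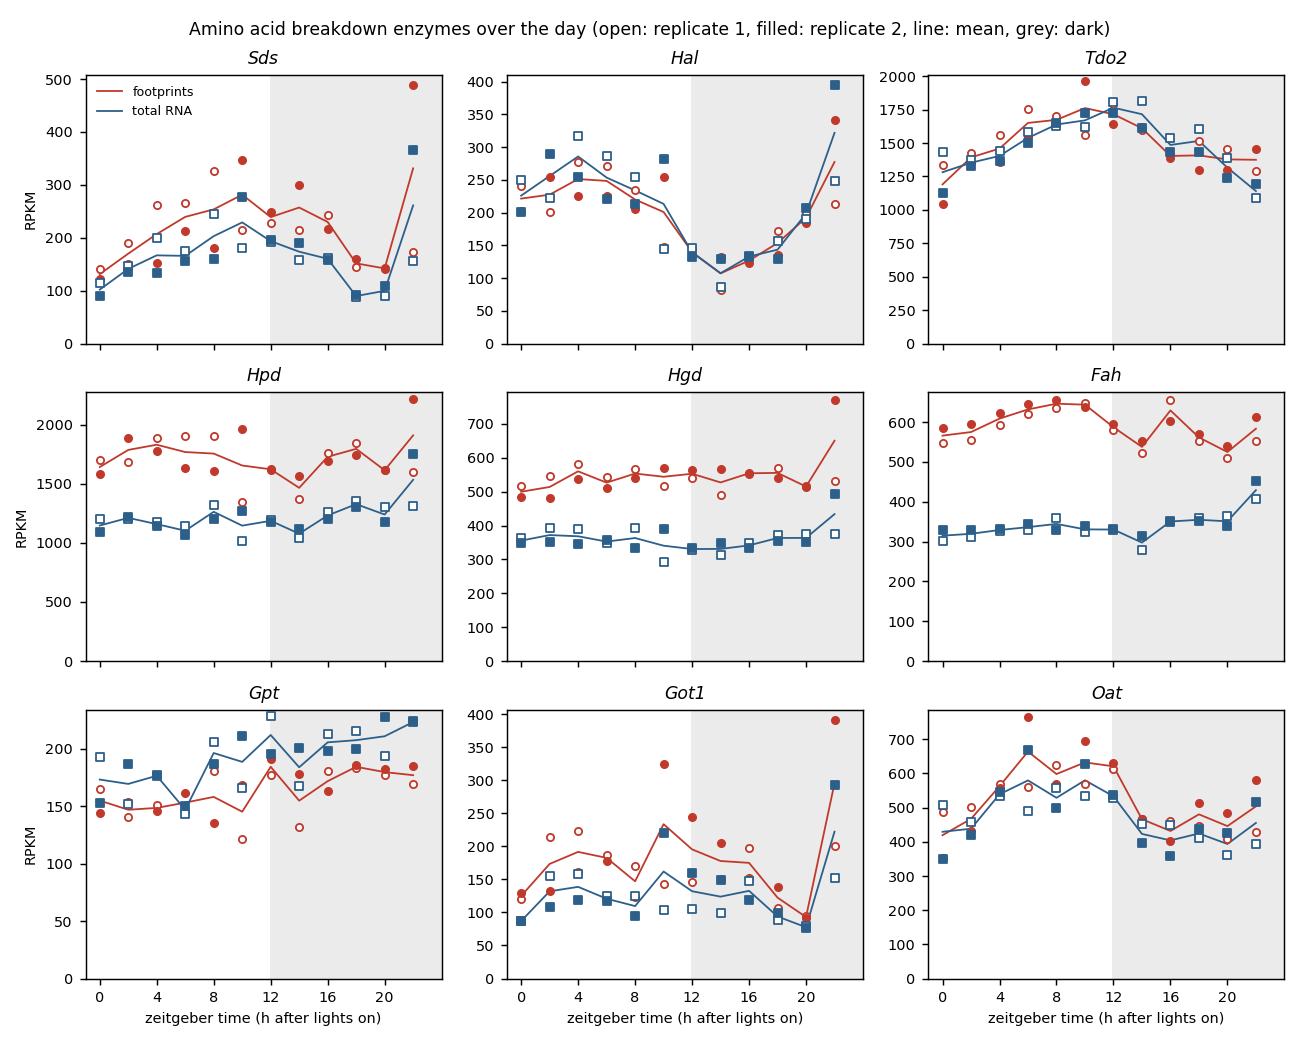
RPKM of each member (linear axes from 0) against zeitgeber time in h, with footprints as red circles and total RNA as blue squares; open symbols are replicate 1, filled symbols replicate 2, lines the mean of the 2 pools, and grey the dark phase. Hal is lowest at ZT14 in both assays, and Sds and Got1 are far higher in replicate 2 than in replicate 1 of ZT22.

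A 24 h curve was fitted to each gene in each assay. A rhythm was called where the adjusted p was under 0.05 and the curve's peak stood at least 1.5-fold above its trough. By that rule 1 of 9 members was called in footprints, Hal, where 16.7% of 9445 genes were called. In total RNA 2 of 9 were called, Hal and Sds, where 15.8% of genes were. Both shares are near the background for a list of 9. With time as 12 separate levels, Hal was called in footprints (1 of 9; 22.8% of all genes) and Hal, Sds and Tdo2 in total RNA (3 of 9; 30.3% of all genes). With no minimum fold 4 of 9 passed in footprints (Hal, Tdo2, Oat and Fah; 45.0% of all genes) and 5 of 9 in total RNA (Hal, Tdo2, Oat, Sds and Gpt; 43.1% of all genes). The median fitted fold of the members was 1.32 in footprints (all genes 1.24) and 1.26 in total RNA (all genes 1.25). Fitted folds of most members were small, with Hal apart.

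**Figure D2:**
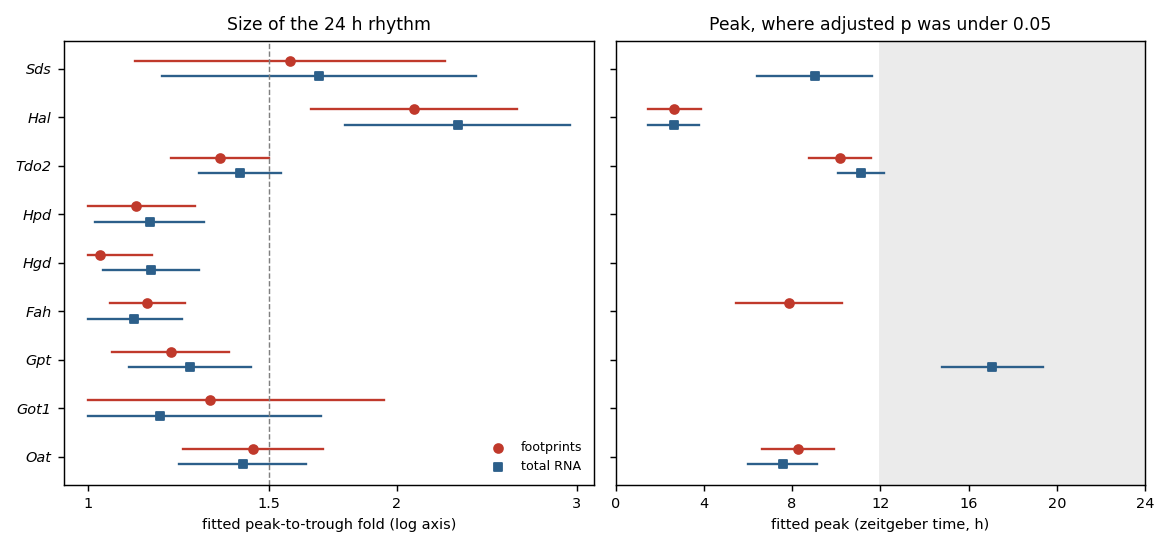
Left, the fitted peak-to-trough fold of each member on a log axis, with its 95% interval, footprints in red above total RNA in blue; the dashed line is the minimum fold of 1.5. Right, the fitted peak in zeitgeber hours with its 95% interval, drawn only where the adjusted p was under 0.05. Hal peaks near ZT2.7 in footprints and ZT2.6 in total RNA, Tdo2 late in the light, and Oat in its middle to late part.

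Hal was the member with a clear daily rhythm. It was high from the end of the night, at ZT22, through ZT8 and low in the first hours of darkness, in footprints and in total RNA alike. Hal (ENSMUSG00000020017, chromosome 10, 93488768 to 93519304, GRCm38) had 239.9 and 203 RPKM in footprints of the ZT0 pools, 201 and 254 at ZT2, 277 and 225 at ZT4, 271 and 225 at ZT6, 235 and 205 at ZT8, and 147 and 255 at ZT10. In the dark its footprints read 144 and 136 RPKM at ZT12, 82.1 and 132 at ZT14, 130 and 123 at ZT16, 172 and 135 at ZT18, 199.6 and 184.5 at ZT20, and 214 and 341 at ZT22. All 8 pools of ZT12 to ZT18 were below all 10 pools of ZT0 to ZT8, in windows picked after the values were seen. Total RNA of Hal read 316.5 and 255 RPKM at ZT4, 85.6 and 129 at ZT14, and 248 and 395 at ZT22. Its lowest time point mean was at ZT14 in both assays (107 RPKM in each). The highest was at ZT22 in both (277 RPKM in footprints and 322 in total RNA), where replicate 2 stood far above replicate 1.

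The fitted rhythm of Hal was 2.08-fold in footprints (95% interval 1.65 to 2.62) with a peak at ZT2.7 ± 1.21 h (95% interval), and 2.29-fold in total RNA (1.78 to 2.95) with a peak at ZT2.6 ± 1.16 h. The adjusted p was 6.15e-05 in footprints and 3.83e-05 in total RNA (limma, Benjamini-Hochberg over 9445 genes). The call was kept in both assays without any 1 of the 24 pools, and without the 6 pools holding pancreatic transcripts (adjusted p of 0.00265 in footprints and 0.0028 in total RNA). In the fit without these 6 pools Hal was the 1 member of 9 called in footprints (15.2% of all genes) and the 1 called in total RNA (15.1% of all genes). Genes whose levels followed Hal most closely over the 24 libraries of each assay were Cbs, with a Pearson r of 0.901 in footprints and 0.93 in total RNA, Abat, with 0.92 and 0.904, and Amt, with 0.919 and 0.902. Cbs, the enzyme that joins homocysteine and serine, had a fitted fold of 2.54 in footprints and 2.53 in total RNA. Abat, the aminotransferase of gamma-aminobutyrate, had 1.44 in both. These genes were ranked on this likeness, so their r is a description, and the libraries of a pool share its animals.

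Of the 3 histidine genes downstream of Hal, 1 was called in each assay (16.7% of all genes in footprints and 15.8% in total RNA). Amdhd1, the imidazolonepropionase of the third step, cycled 2.53-fold in footprints (2.04 to 3.15, peak ZT4.1, adjusted p = 1.11e-06, limma) and 2.82-fold in total RNA (2.25 to 3.53, peak ZT3.8). Uroc1, the urocanase between Hal and Amdhd1, had a fitted fold of 1.12 in footprints (1.01 to 1.24, adjusted p = 0.137) and 1.17 in total RNA (1.03 to 1.33, adjusted p = 0.109, limma). Ftcd, which ends the pathway, had 1.22 in footprints (adjusted p = 0.00426) and 1.33 in total RNA (adjusted p = 0.00857), under the minimum fold. Whether these folds differ from that of Hal was not tested.

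Tdo2 and Oat had smaller rhythms, below the minimum fold but with adjusted p under 0.05 in both assays. Fitted peaks lay late in the light for Tdo2 and in its middle to late part for Oat. Tdo2 (ENSMUSG00000028011, chromosome 3, 81957090 to 81976202) had 1557 and 1967 RPKM in footprints at ZT10, and 1338 and 1045 at ZT0. In total RNA it had 1804 and 1725 RPKM at ZT12, and 1089 and 1193 at ZT22. The pools of these extremes did not overlap in either assay. The time points were picked as extremes of these same values, so this is a description and no test. Fitted folds of Tdo2 were 1.34 in footprints (1.21 to 1.501, peak ZT10.2, adjusted p = 0.000387) and 1.41 in total RNA (1.28 to 1.54, peak ZT11.1, adjusted p = 8.43e-06, limma).

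Oat (ENSMUSG00000030934, chromosome 7, 132557478 to 132576398) had 562 and 766 RPKM in footprints at ZT6, 570.1 and 695 at ZT10, and 486.5 and 352.5 at ZT0. In total RNA Oat had 533 and 627 RPKM at ZT10 and 362 and 425 at ZT20. Pools of the high and low time points did not overlap, but these were picked on the same values, so this is no test. Its fitted folds were 1.45 in footprints (1.24 to 1.70, peak ZT8.3, adjusted p = 0.00156) and 1.42 in total RNA (1.23 to 1.63, peak ZT7.6, adjusted p = 0.00118, limma). Without ZT22 replicate 2 the footprint fold was 1.52 and Oat was called. With time as 12 separate levels the adjusted p of Oat was 0.0527 in footprints and 0.0812 in total RNA, and that of Tdo2 was 0.0752 in footprints and 0.00447 in total RNA (limma).

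The tyrosine enzymes Hpd and Hgd had no detected rhythm. Hpd (ENSMUSG00000029445, chromosome 5, 123171807 to 123182727), which makes homogentisate, ranged over 1348, 1691 and 2217 RPKM in footprints (lowest, median and highest of 24 pools) and 1019, 1202 and 1754 in total RNA. Hgd (ENSMUSG00000022821, chromosome 16, 37580153 to 37632020), which opens the ring of homogentisate, ranged over 481, 541 and 770 RPKM in footprints and 291.5, 352 and 492 in total RNA. For both genes the highest value in each assay was that of ZT22 replicate 2. Fitted folds were 1.11 in footprints and 1.15 in total RNA for Hpd (adjusted p of 0.34 and 0.149), and 1.03 and 1.15 for Hgd (adjusted p of 0.918 and 0.083, limma). The 95% intervals reach 1.27-fold in footprints for Hpd, against 1.298-fold in its total RNA, and for Hgd 1.15-fold in footprints, against 1.28-fold in its total RNA.

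Fah (ENSMUSG00000030630, chromosome 7, 84585159 to 84606722), the last enzyme of tyrosine breakdown, had a narrow footprint range of 511 to 657 RPKM over 24 pools. Footprints were 636 and 657 RPKM at ZT8 and 511 and 539 at ZT20. Its total RNA was highest at ZT22, with 406 and 452 RPKM, and lowest at ZT14, with 280.0 and 315. Footprints peaked in the fit at ZT7.9 with 1.14-fold (1.05 to 1.24, adjusted p = 0.029, limma), and total RNA had 1.11-fold (1.00 to 1.24, adjusted p = 0.254). The time point of highest transcript level was not that of highest footprint level. With time as 12 separate levels the footprint test no longer passed (1.23-fold between the highest and lowest time points, adjusted p = 0.103) and the total RNA test did (1.44-fold, adjusted p = 0.0107, limma). The footprint value passed in 21 of 24 fits that left out 1 pool, and not without the pools holding pancreatic transcripts, where the fold was 1.16 (adjusted p = 0.0977).

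Sds, Got1 and Gpt release or move nitrogen in the cytosol. Sds and Got1 had the widest gaps between the pools of 1 time point, with coefficients of variation of up to 67.2% in footprints and 57.2% in total RNA for Sds, both at ZT22, and of up to 54.9% and 51.1% for Got1, both at ZT10. Sds (ENSMUSG00000029597, chromosome 5, 120476526 to 120483932) had 140.5 and 122 RPKM in footprints at ZT0, 326 and 181 at ZT8, 215 and 348 at ZT10, 144 and 159 at ZT18, and 143 and 141 at ZT20. Then at ZT22 it had 488.5 RPKM in replicate 2 and 174 in replicate 1. The pool of 488.5 was the highest of 24 and stood at a time point flanked by low ones. In total RNA Sds had 181 and 277 RPKM at ZT10, 87.5 and 92.0 at ZT18, 89.9 and 109 at ZT20, and, at ZT22, 367 in replicate 2 and 155.5 in replicate 1.

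The fitted fold of Sds was 1.57 in footprints (1.11 to 2.23, peak ZT10.4, adjusted p = 0.0826) and 1.68 in total RNA (1.18 to 2.39, peak ZT9.0, adjusted p = 0.0472, limma). The total RNA call was kept in 5 of 24 fits that left out 1 pool, and in the others the adjusted p was 0.052 to 0.0999. Without the pools holding pancreatic transcripts the fold was 1.76 and the adjusted p was 0.105. Without ZT22 replicate 2 alone Sds was called in both assays, at 1.93-fold in footprints (adjusted p = 0.000195) and 2.07-fold in total RNA (adjusted p = 6.63e-05), with peaks at ZT10.3 and ZT9.3. In that fit 3 of 9 members were called in footprints (Hal, Sds and Oat; 16.9% of all genes) and 2 of 9 in total RNA (Hal and Sds; 15.8%). That pool was left out after its values had been seen. The annotation places Gm15690 and Plbd2 on the opposite strand over Sds, Psmd9 and the same-strand Gm26745 over Hpd, Gm46559 over Hgd, and the same-strand Fgfr2 over Oat. Whether counting used the strand is not given in the sources used, so reads shared with these genes cannot be separated.

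Got1 (ENSMUSG00000025190, chromosome 19, 43499752 to 43524605) had 391 RPKM in footprints of ZT22 replicate 2 and 199.9 in replicate 1. At ZT10 it had 324 in replicate 2 and 143 in replicate 1, and at ZT20 92.0 in replicate 2 and 94.1 in replicate 1. Total RNA showed the same split, with 292.5 RPKM in replicate 2 and 152 in replicate 1 at ZT22, and 220.3 in replicate 2 and 103 in replicate 1 at ZT10. No rhythm of Got1 was called. Its fold was 1.32 in footprints (1.00 to 1.95, adjusted p = 0.448) and 1.18 in total RNA (1.00 to 1.69, adjusted p = 0.718, limma). Without both pools of ZT22 it was 1.72 in footprints (adjusted p = 0.0207) and 1.52 in total RNA (adjusted p = 0.0498), both called. In that fit, chosen after seeing the data, 4 of 9 members were called in footprints (Hal, Sds, Got1 and Oat; 17.8% of all genes) and 3 of 9 in total RNA (Hal, Sds and Got1; 16.2% of all genes).

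Gpt (ENSMUSG00000022546, chromosome 15, 76695716 to 76699686) ranged over 122, 167 and 191 RPKM in footprints (lowest, median and highest pool) and 143.5, 195 and 229 RPKM in total RNA. Its fitted peak fell in the dark, unlike those of the members named so far with an adjusted p under 0.05. The fold was 1.204 in footprints (1.06 to 1.37, peak ZT17.8, adjusted p = 0.0556) and 1.26 in total RNA (1.10 to 1.44, peak ZT17.1, adjusted p = 0.0227, limma). Without the pools holding pancreatic transcripts the total RNA fold was 1.22 and the adjusted p was 0.19. With each library scaled to a common median, the footprint value passed as well (adjusted p = 0.0394).

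At some time points 1 pool was above the other for nearly every member. At ZT22 replicate 2 was above replicate 1 for 9 of 9 members in footprints (median log2 difference 0.47) and for 9 of 9 in total RNA (0.40). Over all tested genes 53.2% were higher in that pool in footprints and 49.98% in total RNA, with median differences of 0.02 and 0. At ZT10 replicate 2 was above replicate 1 for 8 of 9 members in footprints (median 0.47) and 9 of 9 in total RNA (0.35). Over all tested genes the shares there were 52.4% in footprints and 49.5% in total RNA. At ZT14 the member counts were 9 of 9 and 7 of 9 (49.75% and 48.7% of all genes). At ZT16 they were 0 of 9 and 1 of 9 (49.75% and 50.95%), and at ZT8 1 of 9 in each assay (48.9% and 44.6%). The time points named here were picked for their one-sided counts. With 2 pools a time point there is no test of a single difference, and members measured in 1 pool share its animals.

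The size of the pool differences separated the members. At ZT22 the log2 difference of Sds was 1.49 in footprints and 1.24 in total RNA, those of Got1 0.97 and 0.95, and those of Hal 0.67 and 0.67. At ZT10 the largest was that of Got1, 1.18 in footprints and 1.09 in total RNA, followed by Hal with 0.79 and 0.97. Fah, at 0.15 in both assays at ZT22, and Tdo2, at 0.18 and 0.13, differed least there beside Gpt, at 0.13 and 0.01. Hepatocyte markers at ZT22 summed to 124200 RPKM in replicate 2 and 112100 in replicate 1 in footprints, and to 96420 and 80850 in total RNA. Pancreatic markers at ZT22 were at most 2.55 RPKM, and Kupffer markers summed to 232 RPKM in replicate 2 and 198 in replicate 1 in footprints. Their part in the differences was not tested. Of the 62 other breakdown genes, 43 were higher in replicate 2 of ZT22 in footprints (median 0.14) and 41 in total RNA (median 0.10). Of all tested genes 53.2% were higher there in footprints and 49.98% in total RNA.

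**Figure D3:**
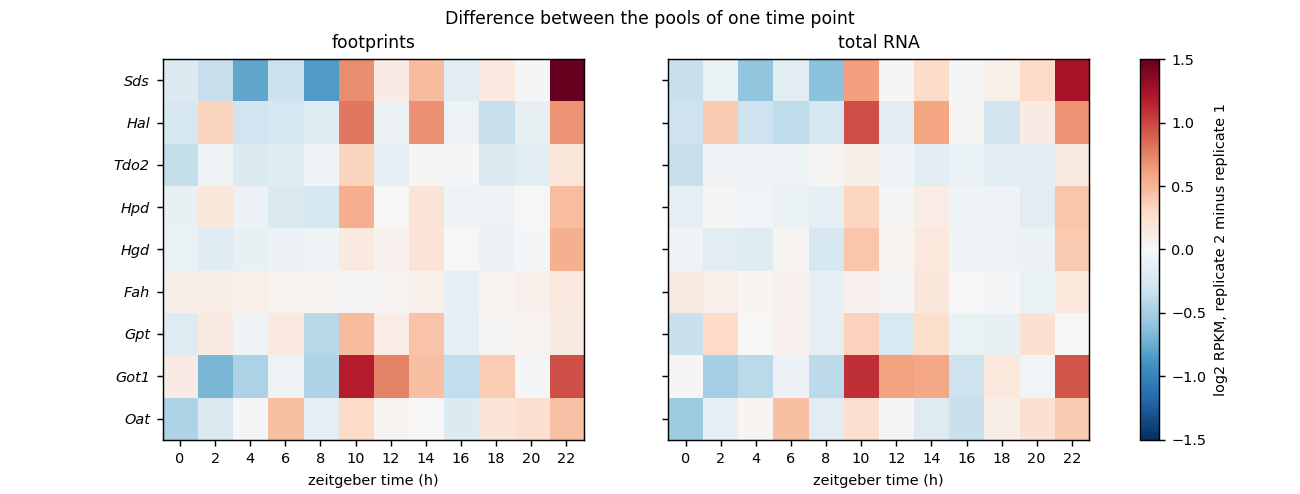
Log2 RPKM of replicate 2 minus replicate 1 for each member (rows) and time point (columns), in footprints on the left and total RNA on the right; red is higher in replicate 2 and blue higher in replicate 1. The darkest cells are at ZT22 for Sds (1.49 in footprints) and ZT10 for Got1 (1.18).

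Both assays of a pool gave similar differences for most members. Across all tested genes the differences of the assays also correlated, with r of 0.16 to 0.683 at single time points. Relations over time points were not set against those of other genes, so they are not shown to be particular to the members. Over 12 time points, the replicate difference in footprints and that in total RNA had a Pearson r of 0.986 for Got1 (Spearman rho 1, same direction at 12 of 12 time points), 0.972 for Hal and 0.97 for Sds. Adjusted over the 9 members, the two-sided permutation p was 2.25e-05 for r of each of these 3, from the smallest p these permutations can give, and 9e-05, 0.000203 and 0.000135 for rho of Got1, Hal and Sds. Without the 2 time points farthest from the median, r was 0.972 for Got1, 0.946 for Hal and 0.906 for Sds. Oat had an r of 0.964, Hpd 0.931, Hgd 0.825, Tdo2 0.811 and Gpt 0.717, with rho of 0.916, 0.811, 0.685, 0.615 and 0.734 in that order, and adjusted p of at most 0.00982 for r and 0.0423 for rho. Without the 2 farthest time points their r was 0.57 to 0.928. Fah had an r of 0.352 (adjusted p = 0.267) and a rho of 0.587 (adjusted p = 0.0491), with an r of 0.61 without the 2 farthest time points. Both libraries come from 1 lysate, so these relations show what the assays share in a pool, whatever its source.

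Translation efficiency, the ratio of footprint to total RNA, differed between members. All 9 had a mean above the median of all tested genes, which was −0.34 on the log2 scale (quartiles −0.91 and 0.12). The tyrosine enzymes Fah, Hgd and Hpd came first among the members. Fah had a mean log2 ratio of 0.80 ± 0.16 (SD, 24 pools), at percentile 95.3 of tested genes, Hgd 0.60 ± 0.10 (92.1) and Hpd 0.49 ± 0.12 (89.5). Got1 followed with 0.45 ± 0.11 (88.3) and Sds with 0.41 ± 0.18 (87.4). Lower were Oat at 0.13 ± 0.08 (75.8), Tdo2 at 0.02 ± 0.12 (69.7), Hal at −0.07 ± 0.10 (65.2) and Gpt at −0.23 ± 0.14 (56.0). Footprints exceeded total RNA in 24 of 24 pools for the first 5, in 23 for Oat, 12 for Tdo2, 8 for Hal and 2 for Gpt. Of the 62 other breakdown genes, 50 lay above the all-gene median. Gstz1, the isomerase between Hgd and Fah, named here after its values were seen, had 0.06 (71.8).

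Neighbours in this order were compared within pools by a two-sided permutation test with 100000 sign flips, adjusted over 8 pairs, and 5 of the 8 differed. Fah was above Hgd by 0.19 (22 of 24 pools, adjusted p = 8e-05), Hgd above Hpd by 0.11 (17 of 24, adjusted p = 0.00602), Sds above Oat by 0.28 (23 of 24, adjusted p = 8e-05), Oat above Tdo2 by 0.12 (20 of 24, adjusted p = 0.00036) and Hal above Gpt by 0.16 (21 of 24, adjusted p = 8e-05). The other 3 pairs did not separate beyond the spread of pools. These were Hpd and Got1 (0.04, 16 of 24, adjusted p = 0.136), Got1 and Sds (0.04, 16 of 24, adjusted p = 0.396) and Tdo2 and Hal (0.08, 14 of 24, adjusted p = 0.0746). The pairs were set by the order of the means of these same ratios. The test therefore shows how steady a difference was over the pools, and is no separate test of the order. It cannot tell a difference in translation from a bias in a gene's RPKM that all pools share. Such a bias, as from the genes that overlap Sds, Hpd, Hgd and Oat, was not tested. The ratio compares genes within these scaled libraries and is no absolute rate.

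**Figure D4:**
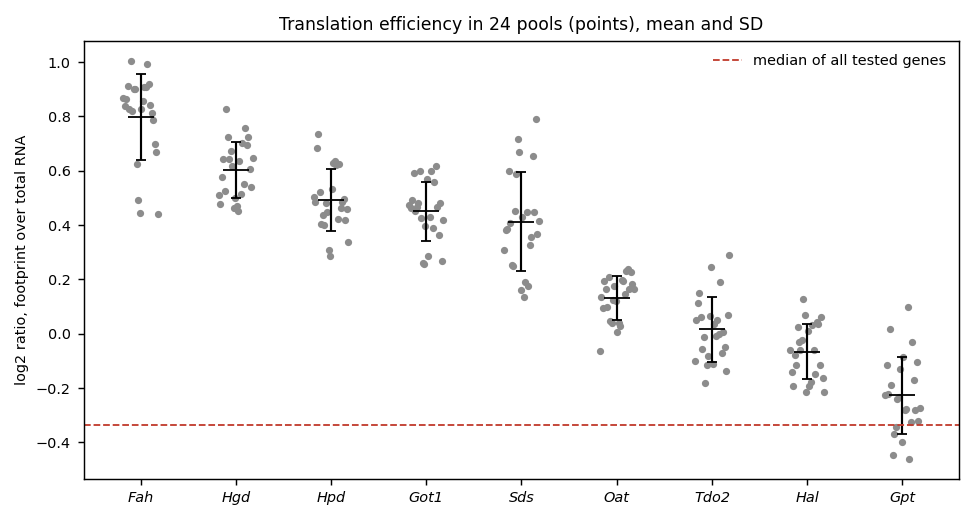
Log2 ratio of footprint to total RNA RPKM for each member, sorted by mean; grey points are the 24 pools, black bars the mean and SD, and the dashed line the median of all tested genes at −0.34. Fah is highest at 0.80 and Gpt lowest at −0.23, and Fah has a lower tail of pools.

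No member had a called rhythm of efficiency when the assays were fitted as separate libraries (0 of 9, where 0.371% of genes were called; limma, 1 of 9 and 1041 of 9445 genes at an unadjusted p under 0.05). Paired by pool, 1 of 9 was called, Fah, where 3.23% of genes were. The ratio of Fah was lowest at the end of the night. It was 0.63 and 0.70 on the log2 scale in the pools of ZT18, 0.49 and 0.67 at ZT20, and 0.45 and 0.44 at ZT22. The other 18 pools had 0.79 to 1.01, with no overlap. The low time points were set apart after their values were seen, so this split is a description and no test. At ZT0 the ratio stood at 0.87 and 0.83. The 12 of these 18 pools without pancreatic transcripts had 0.81 to 1.01. At ZT18 the depth of total RNA was lowest, and Fah had 2756 and 1621 approximate reads there. The fitted curve had 1.26-fold (1.14 to 1.40) with a peak at ZT8.3 ± 1.67 h, and an adjusted p of 0.0291 paired and 0.172 unpaired. A smooth 24 h curve does not describe the step between ZT22 and ZT0. The paired call was kept in 22 of 24 fits that left out 1 pool, with exceptions for replicate 1 of ZT18 and of ZT20 (adjusted p up to 0.0636). Without the pools holding pancreatic transcripts the fold was again 1.26 and the adjusted p was 0.261. The other 8 members had smaller paired folds and adjusted p of 0.0814 or more.

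The other genes of amino acid breakdown gave a wider picture, with 62 of 63 listed genes tested (Tdh was not found in both assays). In footprints 17 of 62 (27.4%) were called, against 16.7% of all genes, and in total RNA 15 of 62 (24.2%), against 15.8%. Called in both were 13, but the share of all genes called in both was not counted, so this number has no background. The median fitted fold of the list was 1.22 in footprints and 1.27 in total RNA, near that of all genes. The paired efficiency fit called 3 of 62 (3.23% of all genes) and the unpaired one 0 (0.371% of all genes; limma, 5 of 62 at an unadjusted p under 0.05). Each of the 13 genes called in both assays was also called without any 1 pool. They were picked as called in these same data, so these refits are a description. Without the pools holding pancreatic transcripts 13 of 13 were called in footprints and 12 of 13 in total RNA, where Gpt2 had 1.49-fold.

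Of the tryptophan genes, 4 of 7 were called in footprints (16.7% of all genes) and 5 of 7 in total RNA (15.8%). Peaks of the 3 with the widest footprint fold were late in the night, and those of Kynu (ZT3.4 in footprints and ZT3.6 in total RNA) and Qprt (called in total RNA, ZT3.4), both named after their values were seen, were early in the light. Acmsd, which steers tryptophan carbon away from NAD synthesis, cycled 3.12-fold in footprints (1.97 to 4.94) and 3.07-fold in total RNA (2.10 to 4.47), with a peak at ZT21.3 in both. Ido2, which like Tdo2 opens the tryptophan ring, cycled 1.74-fold in footprints (peak ZT21.7) and 1.77-fold in total RNA (peak ZT20.6). Afmid, which removes the formyl group in the step after Tdo2, cycled 1.66-fold in footprints (peak ZT22.8) and 1.80-fold in total RNA (peak ZT22.0). Tdo2 itself peaked at ZT10.2 in footprints and ZT11.1 in total RNA, at the other end of the light phase. With time as 12 separate levels in place of the curve, the Acmsd footprint call ended (adjusted p = 0.0759) at a fold of 3.77 between the highest and lowest time points.

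Serine and glycine genes were called in 3 of 10 in each assay (16.7% of all genes in footprints and 15.8% in total RNA). Gldc, the decarboxylase of the glycine cleavage system, cycled 2.47-fold in footprints (peak ZT23.6) and 2.40-fold in total RNA (peak ZT23.5). Amt, the aminomethyltransferase of the same system, cycled 2.30-fold in both, with peaks at ZT2.5 in footprints and ZT2.7 in total RNA. Agxt, which turns glyoxylate into glycine, cycled 2.25-fold in footprints (peak ZT4.8) and 2.36-fold in total RNA (peak ZT4.5). These peaks lie around lights on, within 4 h of that of Hal.

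The aminotransferases Gpt2 and Tat peaked in the dark. Gpt2, the mitochondrial partner of Gpt, cycled 1.77-fold in footprints (peak ZT15.0) and 1.59-fold in total RNA (peak ZT15.7). Tat, which starts tyrosine breakdown ahead of Hpd, cycled 1.93-fold in footprints (1.57 to 2.37, peak ZT17.7) and 1.86-fold in total RNA (1.52 to 2.27, peak ZT18.0), the 1 gene of 5 in the phenylalanine and tyrosine list that was called in both assays (16.7% of all genes were called in footprints and 15.8% in total RNA). Aspg, an asparaginase homolog, peaked in the light, with 1.58-fold in footprints (peak ZT7.5) and 1.75-fold in total RNA (peak ZT6.2). Csad, which acts in taurine synthesis from cysteine, cycled 1.77-fold in footprints (peak ZT1.7) and 2.18-fold in total RNA (peak ZT2.3).

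In branched chain breakdown 1 of 19 genes was called in each assay, the same one, where 16.7% of all genes were called in footprints and 15.8% in total RNA. These shares also apply to the called proline, lysine and regulator genes that follow, but not to the counts at an unadjusted p. With no minimum fold, an adjusted p under 0.05 alone was reached by 45.0% of all genes in footprints and 43.1% in total RNA (limma). That gene, Ppm1k, the phosphatase that activates the branched chain ketoacid dehydrogenase, cycled 1.78-fold in footprints (peak ZT2.6) and 1.70-fold in total RNA (peak ZT2.6). Proline genes were called in 2 of 4 in footprints and 0 of 4 in total RNA (limma, 2 of 4 at an unadjusted p under 0.05), and lysine genes in 1 of 5 and 0 of 5 (2 of 5). The difference between assays was not called for any of these 9. Of 5 regulators (Klf15, Creb3l3, Nr3c1, Cebpb and Gcgr) 0 were called in footprints (limma, 3 of 5 at an unadjusted p under 0.05) and 1 in total RNA. That was Cebpb, named here after its values were seen, with 1.49-fold in footprints (adjusted p = 0.0182) and 1.71-fold in total RNA (peak ZT11.0, adjusted p = 0.00192, limma).

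**Figure D5:**
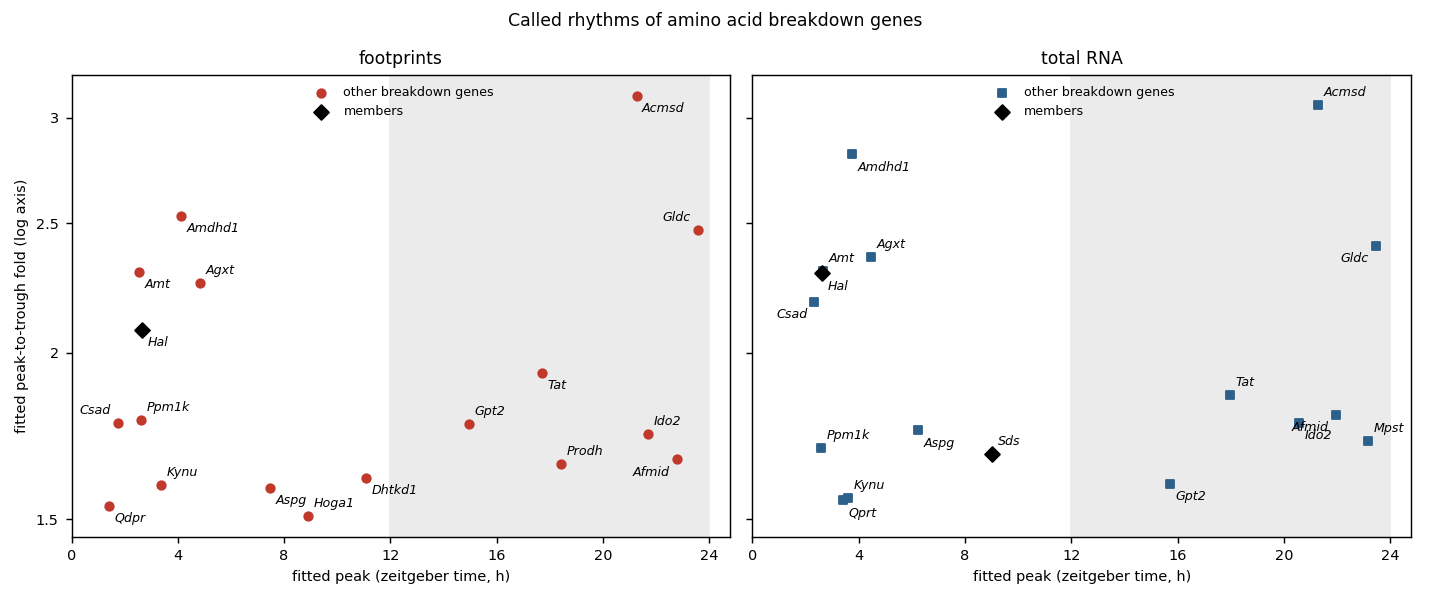
Fitted peak in zeitgeber hours against fitted peak-to-trough fold (log axis) for every called gene, in footprints on the left and total RNA on the right; black diamonds are members, coloured symbols the other breakdown genes, and grey the dark phase. In both assays the folds above 2 sit between ZT21.3 and ZT4.8, with Hal among them.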

How the data were processed

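The authors deposited RPKM per Ensembl gene, with a table for each library. The submitters' processing notes name edgeR, Cufflinks 2.2.1, TopHat2 2.0.11, Bowtie2 2.2.1, TopHat, cutadapt and CASAVA 1.82, and the builds GRCm38.p2 and mm10. The sources used here do not give their roles, the gene models, or how multi-mapping reads and scaling were handled, so changes of all transcripts together cannot be seen. Symbols and coordinates came from GENCODE M21 (GRCm38).

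From these values, 9445 genes averaging 1 RPKM or more in each assay were fitted on log2(RPKM + 0.1) with a cosine and sine of 24 h in limma 3.58.1 (R 4.3.3, mean-variance trend, moderated F test, Benjamini-Hochberg adjustment). Folds are on that scale. Rhythmic efficiency was the interaction of assay and curve over 48 libraries, or, paired, the curve on each pool's log2 ratio. Pairing comes from the shared lysate, per the labels' protocols. As a check, deviations of the assays from time point means correlated across genes with r of 0.16 to 0.683, above 0.1 at 12 of 12 time points. Replicates are different animals. On simulated data of 9445 genes, rhythms of 1.5-fold were called for 40% of 25 changed genes in each assay, 2-fold ones for 96%, and unchanged genes for 0.0541% in footprints and 0% in total RNA. Footprint-only rhythms of 2-fold were called in the unpaired efficiency fit for 76%. The simulated noise was independent between genes and libraries, without the differences that libraries of a pool share, so these rates need not hold for the measured data.

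Depth was read from whole multiples of 1 read in RPKM times coding length, within 0.04 of a read. Of low values, 63% to 80.5% in footprints and 64.8% to 85.5% in total RNA gave these. Chance gives 8% for a depth fixed beforehand. Depth was searched for a high share, so chance gives more than that here, by an amount not computed. Too few values were whole to recover read counts. Tables and permutation tests used Python 3.11.15, numpy 2.4.6, pandas 2.3.3, scipy 1.17.1 and matplotlib 3.10.9. Members and gene lists were chosen with earlier results of these data known. All members were named, and per pathway the genes called in both assays, at most the 3 of widest footprint fold. Other pseudocounts, filters, scalings and curves, each pool left out, and, added after seeing the data, the pancreatic pools, ZT22 and ZT18 left out, were tried.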

Additional observations from a re-analysis of the deposited data

How the results depend on the processing

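The members called in footprints numbered 1, and 4 without a minimum fold or without ZT22. Leaving out 1 pool gave 1 to 3, the 3 without ZT22 replicate 2. In total RNA 2 members became 5 without a minimum fold, and 1 with no mean-variance trend, with 24 h and 12 h curves together, without ZT18 or without the pools holding pancreatic transcripts. Leaving out 1 pool gave 1 to 2. Members with rhythmic efficiency numbered 0 to 0 without 1 pool, and 1 with the replicate block of each lysate pool (0 to 1 without 1 pool). The other breakdown genes called numbered 16 to 17 in footprints and 15 to 16 in total RNA without 1 pool, and 26 in total RNA with time as 12 levels. Over all genes, 1573 calls in footprints became 1497 to 1666 without 1 pool. The 1494 in total RNA became 1415 to 1625, and 2863 with time as 12 levels or 2381 with both curves. For efficiency, 35 became 305 with the replicate block (129 to 353 without 1 pool, and 2 without the pancreatic pools), 66 with both curves, 63 without ZT22, 15 without ZT18, 0 without the pancreatic pools (limma, unpaired; 564 at an unadjusted p under 0.05), and 16 to 52 without 1 pool. The cause was not tested, beyond fewer samples where pools were left out. Of the values of single members under these alternatives, 292 footprint, 272 total RNA and 508 efficiency values kept their status, called or not. Most stayed uncalled, as the main fit called 1 of 9 members in footprints, 2 of 9 in total RNA and 0 of 9 in efficiency. In footprints 5 newly passed, in total RNA 2 newly passed and 23 no longer passed, all 23 for Sds, and in efficiency 23 newly passed, all for Fah in paired fits. Fitted ranges cannot be negative, so they have no sign to change. The 234 mean efficiencies moved by less than their SD. The replicate block changed no call in footprints or total RNA, where it does not enter. Neighbours in efficiency that differed numbered 5 to 6 without 1 pool. Depth limits Sds and Got1 most, at 331.4 and 451.5 approximate reads in the shallowest library.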
